A study of Homo sapiens with 5 samples.

Results

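A set of 7 antigens displayed on the surface of carcinoma cells and pursued as drug targets was followed across the 5 arrays of the series: mesothelin (MSLN), EPCAM, CEACAM1, CEACAM5, CEACAM6, PSCA and CD24. Their probes were taken by gene symbol from the platform annotation, which gave 12 of the 47318 probes on the array, for 7 of the 20044 genes that had a named probe. EPCAM had 3 probes, CEACAM1 had 3, CD24 had 2 and the other genes had 1 each. The arrays were hybridised with total RNA from subconfluent human gastric cancer cells, 1 array per line. The sensitive group was NCI-N87, labelled sensitive to trastuzumab, a therapeutic antibody that binds ERBB2. The resistant group was the 4 lines N87-TR1 to N87-TR4, each labelled resistant to it. All 5 lines shared 1 serum-containing medium, and the labels name no other agent, no drug present at harvest, and nothing on how the resistant lines were obtained or whether they were derived separately. P-values therefore measure only the spread between these 4 arrays, which may be technical.

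Tumour surface antigens are useful as targets when the protein is abundant on carcinoma cells and scarce, or hidden on the luminal face, in normal epithelium. They differ in how they are held in the membrane. EPCAM and CEACAM1 span it, whereas MSLN, CEACAM5, CEACAM6, PSCA and CD24 hang from it by a glycosylphosphatidylinositol (GPI) lipid anchor that is built in the endoplasmic reticulum. Antibodies, antibody-drug conjugates, bispecific antibodies or engineered T cells have been directed at each of these proteins, so the level of the antigen bears on what such agents could bind. The arrays measured RNA, not protein at the surface.

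The resistant lines resembled one another far more than they resembled NCI-N87. Across the 12478 tested genes, which are not independent replicates, Pearson's r lay between 0.751 and 0.764 for NCI-N87 with a resistant line and between 0.943 and 0.979 among the resistant lines. The number of tested genes detected per array ranged from 10248 to 11069 and the median probe signal from 133.8 to 158.2. ERBB2, the target of trastuzumab, was 43.7-fold lower in the resistant lines (adjusted p = 8.54e-05 by limma). The files hold no genotype, and whether all 5 lines have the same origin was not tested. Every comparison with NCI-N87 below rests on its single array.

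Of the 7 antigens, 2 were detected on all 5 arrays (EPCAM and CD24), 3 in NCI-N87 alone (MSLN, CEACAM1 and CEACAM6) and 2 on none (CEACAM5 and PSCA). A probe counted as detected when its signal gave a detection p under 0.01 against the negative controls of its array. MSLN, EPCAM, CEACAM1 and CEACAM6 fell in the resistant lines, and CD24 did not pass the test. In a bulk sample fewer cells bearing an antigen and less of its RNA per cell cannot be told apart. The test was limma across all 12478 genes with a Benjamini-Hochberg adjusted p under 0.05, and its spread came from the 4 resistant lines. In that comparison 10.5% of all tested genes were lower and 12.5% higher. MSLN, CEACAM1 and CEACAM6 entered the test only because NCI-N87 expressed them, so they could only be found lower, and the count of 4 carries no weight as evidence about the antigens as a set. In all 5 tested antigens NCI-N87 lay above every resistant line, which was also true of 31.7% of all tested genes. With 1 array against 4, an exact permutation test of a single gene cannot give a p below 0.2.

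**Figure D1:**
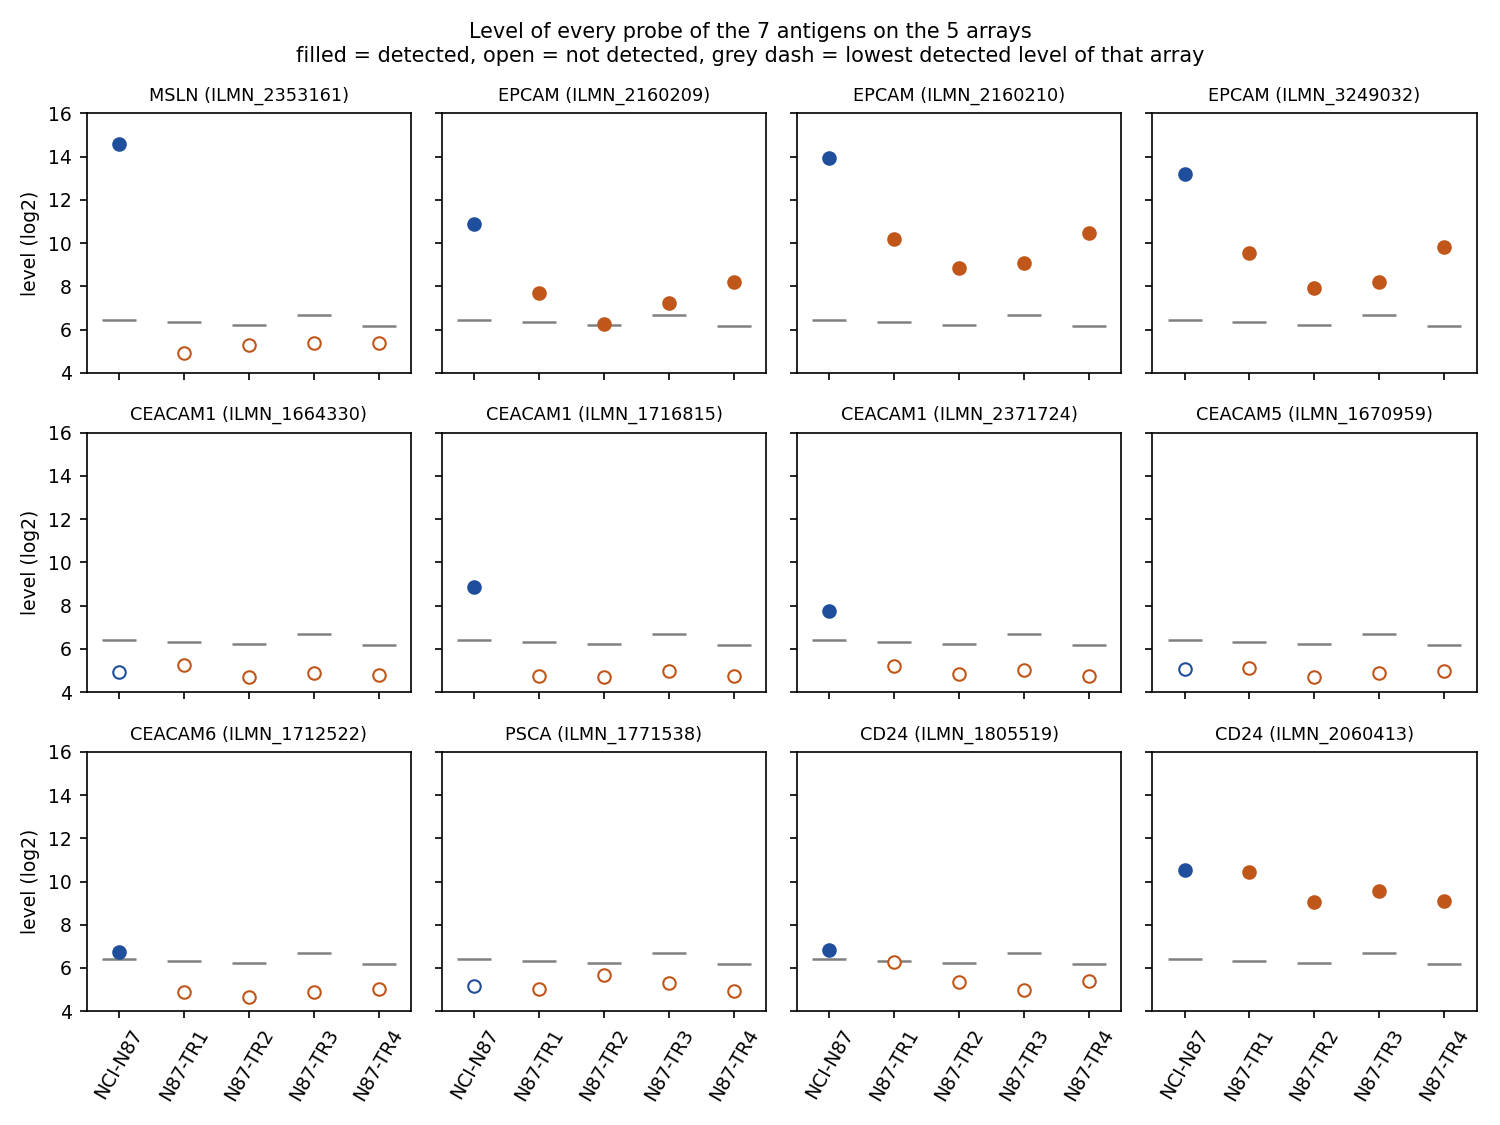
Background-corrected, quantile-normalised log2 level (vertical axis) of each of the 12 probes in NCI-N87 (blue) and the 4 resistant lines (orange), 1 array per point. Filled points were detected and open points were not, and the grey dash is the lowest detected level on that array. MSLN drops from 14.56 to below the dash in all 4 resistant lines, EPCAM stays detected in every line on each of its 3 probes, and CEACAM5 and PSCA are open throughout.

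Mesothelin showed the widest difference among the antigens. MSLN is a GPI-anchored protein of mesothelial cells that many adenocarcinomas express, and it binds the mucin MUC16. The scanner signal of its probe was 18894.2 in NCI-N87 and 112.3, 135.8, 133.3 and 148.6 in N87-TR1 to N87-TR4. On the normalised log2 scale the level was 14.56 in NCI-N87 and 4.94, 5.28, 5.39 and 5.37 in N87-TR1 to N87-TR4. The groups were far apart, and no resistant line was above background, with detection p-values between 0.135 and 0.512. Measured against the lowest detectable level of each array, MSLN was at least 297-fold lower. The fitted log2 difference of -9.32 ± 0.32 (SE) rests on undetected signals, and its SE reflects the spread of background readings. It was -7.54 without background correction and -7.56 with the authors' processed values, both smaller than the bound, which therefore holds only on the background-corrected scale. Differences in MSLN between the resistant lines could not be measured at these signals.

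EPCAM fell but remained detected in every line. It is a transmembrane adhesion protein of simple epithelia and one of the first antigens to which therapeutic antibodies were raised. Its brightest probe gave scanner signals of 12944.6 in NCI-N87 and 1069.3, 604.7, 564.9 and 1954.3 in N87-TR1 to N87-TR4. The log2 level was 13.95 in NCI-N87 and 10.17, 8.85, 9.10 and 10.49 in N87-TR1 to N87-TR4. NCI-N87 was clearly above all 4 resistant lines, among which N87-TR4 and N87-TR1 were the higher pair. The mean of the resistant lines was 9.65 ± 0.80 (SD, n = 4), a log2 difference of -4.30 ± 0.65 (SE), or 19.7-fold lower, with adjusted p = 0.00445 by limma. The 95% interval of the difference ran from -5.85 to -2.74. The other two probes gave the same direction in a fit over all 21759 detected probes, with differences of -4.30 ± 0.76 and -3.55 ± 0.69 (SE) and limma adjusted p-values of 0.0112 and 0.0156. Normalised levels of all 3 EPCAM probes placed the resistant lines in 1 order, with N87-TR4 highest, then N87-TR1, N87-TR3 and N87-TR2. In scanner signal, before normalisation, N87-TR2 read above N87-TR3 on 2 of the 3. EPCAM has intronless copies in the genome whose RNA its probes may also read. The dimmest of the 3 probes was close to its detection limit in N87-TR2, with a level of 6.24 and a detection p of 0.00779.

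CEACAM1 and the weakly expressed CEACAM6 fell below detection in the resistant lines, while CEACAM5 was detected on no array. These genes belong to the carcinoembryonic antigen family of immunoglobulin-like adhesion proteins. CEACAM1 carries inhibitory signalling motifs in its cytoplasmic tail, CEACAM5 is the carcinoembryonic antigen measured in serum of patients with gastrointestinal cancer, and CEACAM6 is a GPI-anchored relative. The family lies on chromosome 19, and the promoter set used here (GRCh38.p14) held sequences for 4 of the 7 antigens, these 3 and CD24. The 3 family promoters are shown side by side as those of related genes, and their part in the readouts was not tested. Each runs from 250 bases before to 50 bases after the annotated start, 5′ to 3′ on the gene's strand. Capitals mark matches on either strand to 3 searched motifs. The first is an E-box with the letters CACGTG. The second is a GC box with the letters GGGCGG, whose reverse complement stands in the line where the match is on the other strand. The third is TATAAA, the letters of a TATA box, marked wherever they stand in the window. No match overlapped another.
CEACAM1 at chr19:42528432-42528731, minus strand: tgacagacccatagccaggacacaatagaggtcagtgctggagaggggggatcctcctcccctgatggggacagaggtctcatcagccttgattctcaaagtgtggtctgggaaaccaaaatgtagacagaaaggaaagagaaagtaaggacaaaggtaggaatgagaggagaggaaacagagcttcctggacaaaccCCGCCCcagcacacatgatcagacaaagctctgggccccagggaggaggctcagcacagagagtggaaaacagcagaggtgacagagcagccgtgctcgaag
CEACAM5 at chr19:41708376-41708675, plus strand: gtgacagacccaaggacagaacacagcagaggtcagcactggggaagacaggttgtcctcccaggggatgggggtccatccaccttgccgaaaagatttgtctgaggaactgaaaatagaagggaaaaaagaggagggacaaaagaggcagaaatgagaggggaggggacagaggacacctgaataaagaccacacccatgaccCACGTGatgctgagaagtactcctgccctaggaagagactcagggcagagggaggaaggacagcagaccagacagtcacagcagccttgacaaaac
CEACAM6 at chr19:41755280-41755579, plus strand: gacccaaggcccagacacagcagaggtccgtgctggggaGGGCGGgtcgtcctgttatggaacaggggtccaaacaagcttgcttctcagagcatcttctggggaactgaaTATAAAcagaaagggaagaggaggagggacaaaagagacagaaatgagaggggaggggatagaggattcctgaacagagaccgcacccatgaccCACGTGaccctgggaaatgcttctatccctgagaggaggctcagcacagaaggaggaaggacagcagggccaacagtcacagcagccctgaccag

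Aligned with gaps at the ends left free, the CEACAM5 and CEACAM6 promoters were identical at 78.8% of aligned bases. CEACAM1 and CEACAM6 were identical at 74.8% and CEACAM1 and CEACAM5 at 72.0%. By the same method a promoter window of CD24, which is not of this family, was identical at 59.9% to CEACAM1, 59.2% to CEACAM5 and 64.5% to CEACAM6. CEACAM5 and CEACAM6 each held a CACGTG, starting 46 and 45 bases before the annotated start, which 7.20% of the 34796 promoters in the table hold. CEACAM1 had none and held a GC box 52 bases before its start, as did CEACAM6 at 211 bases, against 44.9% of all promoters with one at any position. CEACAM6 alone among them held TATAAA, 139 bases before the annotated start, and 11.6% of all promoters held it at any position. Whether it acts as a TATA box was not tested. All 3 were poor in CpG dinucleotides, with 3, 2 and 5 in CEACAM1, CEACAM5 and CEACAM6 against a median of 14 over all promoters. Letters in a window do not show that a factor bound there.

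The probe of CEACAM1 used in the test had scanner signals of 516.2 in NCI-N87 and 98.6, 93.3, 114.3 and 103.5 in N87-TR1 to N87-TR4. Its log2 level was 8.87 in NCI-N87 and 4.76, 4.68, 4.97 and 4.74 in the resistant lines. Only NCI-N87 was detected, and the resistant lines lay at background with a mean of 4.79 ± 0.13 (SD, n = 4). CEACAM1 was at least 5.74-fold lower. The fitted log2 difference was -4.08 ± 0.29 (SE), and this SE too reflects the spread of background readings. Without background correction the fitted difference was -2.49, smaller than the bound, which therefore does not hold on that scale. With the authors' processed values the fitted difference was -2.52, about the size of the bound. A second CEACAM1 probe went from 7.76 in NCI-N87 to between 4.73 and 5.19, again undetected in all 4 lines (fitted log2 difference -2.82 ± 0.33, SE, limma adjusted p = 0.00200 over all detected probes). The third CEACAM1 probe was not detected on any array, NCI-N87 included, with levels from 4.70 to 5.25. The platform annotation lists this silent probe under one RefSeq transcript of CEACAM1 and the 2 responding probes under another, so the fall was seen on only some of the sequence the array samples.

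CEACAM6 had a scanner signal of 190.4 in NCI-N87, with a detection p of 0.00519, and of 108.3, 90.2, 108.4 and 126.8 in N87-TR1 to N87-TR4. In log2 levels this was 6.74 against 4.88, 4.65, 4.88 and 5.03. NCI-N87 stood just above the detection limit and the resistant lines below it. The gene was at least 1.31-fold lower (fitted log2 difference -1.88 ± 0.30, SE, adjusted p = 0.00540 by limma). Without background correction the fitted difference was -0.97, with a limma adjusted p of 0.0275, and with the authors' processed values -1.01, so the size, though not the call, depended on how background was treated. The CEACAM5 probe read 111.1 in NCI-N87 and 123.0, 96.0, 108.3 and 122.0 in N87-TR1 to N87-TR4. None of these signals was above background, and NCI-N87 lay inside the range of the resistant lines. Probes for CEACAM5, CEACAM6 and their relatives can bind each other's transcripts, which share long stretches of sequence, so each of these readings is uncertain as to the gene.

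PSCA, prostate stem cell antigen, is a small GPI-anchored protein of the Ly6 family that normal gastric epithelium also makes. Its scanner signal was 116.1 in NCI-N87 and 118.6, 155.9, 130.0 and 118.8 in N87-TR1 to N87-TR4. No array reached detection, the closest being N87-TR2 with a detection p of 0.0623, and the groups overlapped. With no detected probe, CEACAM5 and PSCA did not enter the test. When all 20044 genes were tested without that filter, CEACAM5 differed by -0.13 ± 0.23 (SE) and PSCA by 0.09 ± 0.33 (SE) on the log2 scale, with adjusted p-values of 0.824 and 0.928 by limma. Such values are differences between background signals and say nothing about an RNA too scarce for these probes.

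CD24 was detected in all lines and, unlike EPCAM, its difference from NCI-N87 did not pass the test; whether the 2 differences differ from each other was not tested. It is a short, heavily glycosylated GPI-anchored protein, and its engagement of SIGLEC10 on macrophages restrains phagocytosis. The scanner signals of its brighter probe were 1426.4 in NCI-N87 and 1255.5, 676.5, 748.5 and 832.0 in N87-TR1 to N87-TR4. The log2 level was 10.54 in NCI-N87 and 10.43, 9.05, 9.55 and 9.11 in N87-TR1 to N87-TR4. N87-TR1 sat next to NCI-N87, and the other 3 resistant lines were lower. The log2 difference of -1.001 ± 0.548 (SE) did not pass (adjusted p = 0.243 by limma), and its 95% interval, from -2.30 to 0.30, spans zero. The dimmer CD24 probe was detected only in NCI-N87, at 6.83, and read 6.27, 5.33, 4.98 and 5.38 in the resistant lines. N87-TR1 was again the highest resistant line, with a detection p of 0.0130. CD24 has processed pseudogenes of near-identical sequence, so its probes may read more than 1 locus. The CD24 promoter is shown for contrast with the CEACAM promoters, with the same motifs in capitals.
CD24 at chr6:106975578-106975877, minus strand: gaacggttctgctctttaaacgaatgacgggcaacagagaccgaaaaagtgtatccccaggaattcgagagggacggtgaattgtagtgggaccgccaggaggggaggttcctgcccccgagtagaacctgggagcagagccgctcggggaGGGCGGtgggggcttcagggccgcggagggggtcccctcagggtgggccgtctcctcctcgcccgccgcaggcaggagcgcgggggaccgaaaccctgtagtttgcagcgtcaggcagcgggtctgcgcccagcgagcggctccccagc

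This CD24 window held 25 CpG dinucleotides, more than 68.0% of all promoters in the table, and 1 GC box. The other two annotated CD24 start windows held 36 and 21.

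Markers of other cell types were counted beside the antigens, and their part in the differences was not tested. The leukocyte markers PTPRC and CD3E, the endothelial markers CDH5 and VWF and the fibroblast markers COL1A2, COL3A1 and DCN were detected on no array, whereas CD14, CD68 and FCGR3A, markers of myeloid cells, were detected on all 5. All 8 tested leukocyte markers were detected in NCI-N87 and 5 of them in a resistant line, so the rest could only be found lower. Of 8 tested leukocyte markers 3 were lower (CD79A, CD2 and ITGAM), and the summed log2 level of that list was 12.72 in NCI-N87 and 12.43 to 13.02 in the resistant lines. Only 1 of the 8 fibroblast markers was tested, COL1A1, which was detected on 1 resistant array and did not pass, with summed levels of 8.88 and 8.97 to 9.13. None of the 5 endothelial markers was tested, with summed levels of 7.79 and 7.62 to 7.75. Markers of the labelled epithelial origin were mostly lower in the resistant lines. Of 12 tested epithelial identity genes, 11 were called lower and only 4 were detected in any resistant line, so the rest could only be found lower. CDX2, an intestinal transcription factor, and keratin 18 (KRT18) were detected on all 5 arrays, whereas keratin 19 (KRT19) and villin (VIL1) were detected in NCI-N87 alone, and the counts of both lists stand below.

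The resistant lines were next set against NCI-N87 1 at a time, with 1 array on each side and no test. These 4 comparisons share the NCI-N87 array. Only EPCAM and CD24 were detected on both sides. EPCAM was at least 2-fold lower in each line. CD24 was 1.08-fold lower in N87-TR1, 2.81-fold in N87-TR2, 1.98-fold in N87-TR3 and 2.68-fold in N87-TR4. Over all tested genes the share at least 2-fold lower was 17.1%, 16.5%, 17.6% and 16.3% in the same order. For EPCAM the fold ranged from 11.0 in N87-TR4 and 13.7 in N87-TR1 to 28.9 in N87-TR3 and 34.3 in N87-TR2. For MSLN, CEACAM1 and CEACAM6 the resistant values lay at background and have no order. The log2 differences of CEACAM6 were -1.86, -2.09, -1.86 and -1.71 in N87-TR1 to N87-TR4, and -0.93, -1.23, -0.93 and -0.81 without background correction, so whether CEACAM6 was 2-fold lower in a line depended on that step.

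**Figure D2:**
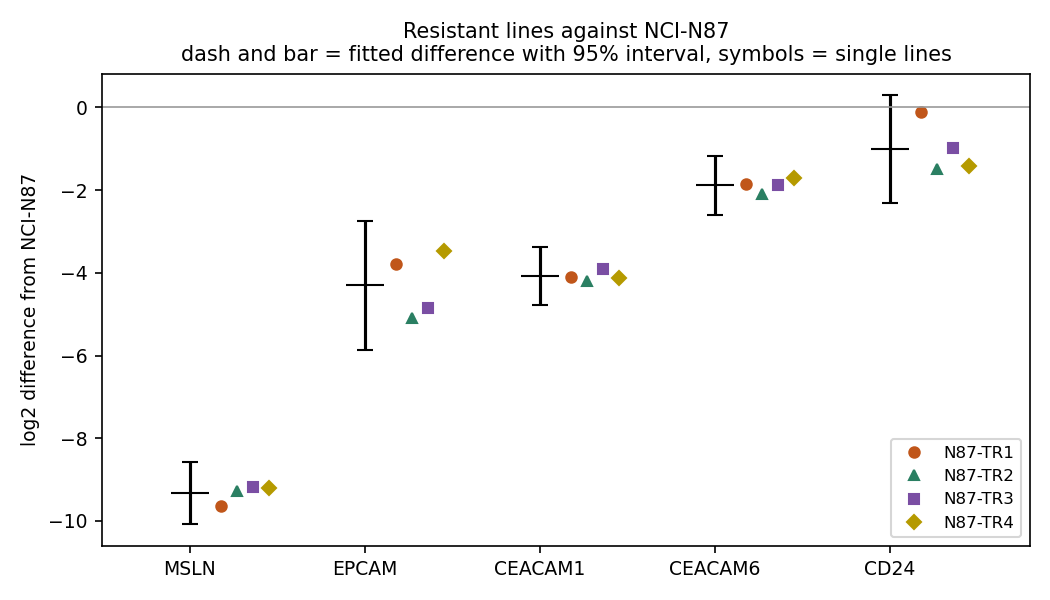
Log2 difference from NCI-N87 (vertical axis) for the 5 tested antigens. The dash with its bar is the limma estimate over the 4 resistant lines with its 95% interval, and the symbols are single lines, 1 array each. Only the CD24 interval, from -2.30 to 0.30, crosses zero, and its symbols run from -0.11 in N87-TR1 to -1.49 in N87-TR2.

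Among the resistant lines themselves, each was compared with the other 3 by the same limma method. No tested antigen passed in any of these comparisons. Over all tested genes 0.954% passed for N87-TR3 and 0% for each of the other lines, where 515 (N87-TR1), 325 (N87-TR2) and 176 (N87-TR4) had an unadjusted p under 0.05. The smallest adjusted p was 0.583 by limma, for EPCAM in N87-TR3, with a log2 difference of -0.74 ± 0.62 (SE). CD24 in N87-TR1 had the smallest unadjusted p and lay 1.19 ± 0.36 (SE) above the other 3 on the log2 scale, with a 95% interval from 0.29 to 2.10, an unadjusted limma p of 0.0187 and an adjusted p of 1.00. EPCAM in N87-TR4 was 1.12 ± 0.58 (SE) above the others, with an interval from -0.30 to 2.54 and adjusted p = 0.999 by limma. In N87-TR2 it was -1.07 ± 0.59 (SE) from the others (limma adjusted p = 1.00). In the order of EPCAM levels no resistant line thus differed from the rest beyond the spread. In normalised level N87-TR1 was near the top for both EPCAM and CD24. N87-TR4 was highest for EPCAM and, on the brighter CD24 probe, close to N87-TR2 at the bottom (9.11 against 9.05). In scanner signal of that CD24 probe N87-TR4 read 832.0, above N87-TR2 at 676.5 and N87-TR3 at 748.5. The place of N87-TR4 for CD24 thus depended on the normalisation.

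The genes whose levels over the 5 arrays lay closest to each antigen were found by Euclidean distance after centring each gene on its own mean. Genes of the Y chromosome and the X-linked gene XIST were left out. This is a description over 5 arrays, dominated by the gap between NCI-N87 and the rest. For MSLN they were the adhesion receptor ADGRG1 (distance 0.67), the basement membrane protein LAD1 (0.73) and the protease KLK6 (0.80), each undetected in the resistant lines. For EPCAM they were ECHDC2 (0.37), the tetraspanin TSPAN1 (0.60) and the aldo-keto reductase AKR1C4 (0.74). ECHDC2 had the same order of lines as EPCAM, with levels of 12.25 in NCI-N87 and 8.91, 7.19, 7.63 and 9.11 in N87-TR1 to N87-TR4. For CEACAM1 they were thrombospondin 1 (THBS1, 0.19), RASL12 (0.19) and the antisense RNA AFAP1-AS1 (0.22), and for CEACAM6 KIAA0040 (0.14), the connexin GJB6 (0.15) and ITPRIPL2 (0.17). For CD24 they were CLDND2 (0.23), PRR15 (0.30) and FHDC1 (0.33). None of these last 3 passed the test against NCI-N87, and all 3 were highest among the resistant lines in N87-TR1, with CLDND2 at 8.35 there and at 6.98, 7.66 and 6.89 in N87-TR2 to N87-TR4.

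**Figure D3:**
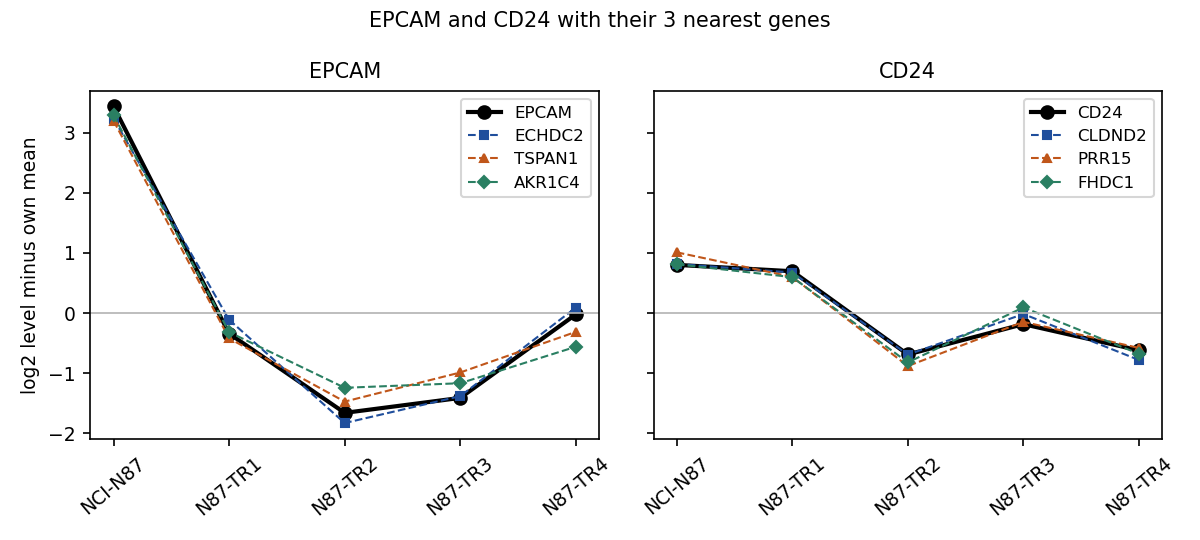
Log2 level minus the gene's own mean over the 5 arrays (vertical axis) for EPCAM and CD24 (black) and the 3 genes nearest to each (dashed), by line, 1 array per point. EPCAM and ECHDC2 are both lowest in N87-TR2 and rise again in N87-TR4, and CD24 with its neighbours is highest among the resistant lines in N87-TR1.

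Genes that work with the antigens were counted from lists, against 10.5% lower and 12.5% higher among all tested genes and a median log2 difference of 0.07. EPCAM is held in complexes with claudin 7 (CLDN7) and the tetraspanin TSPAN8, and it is cut by the proteases ADAM10, ADAM17 and gamma-secretase to release a tail that signals with beta-catenin and LEF1. Among the 16 tested genes of this group 9 were called lower, 1 higher and 6 neither way (median -1.41). All 16 were detected in NCI-N87 and 12 in a resistant line, so the rest could only be found lower. CLDN7 was at least 24.9-fold lower (adjusted p = 6.60e-05), TSPAN8 at least 5.79-fold and matriptase (ST14), a membrane protease that cleaves EPCAM, at least 20.5-fold. ADAM10 fell 15.5-fold (log2 difference -3.95 ± 0.96, SE, adjusted p = 0.0272) and was detected in 3 resistant lines. The gamma-secretase parts NCSTN, APH1A, PSEN2 and PSENEN did not pass, and LEF1 rose 3.04-fold (adjusted p = 0.0109). All adjusted p-values here are from the same limma fit.

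MUC16, the binding partner of mesothelin, had 1 probe and was detected on no array. STRC, a mesothelin relative of the inner ear, differed by -0.72 ± 0.38 (SE, adjusted p = 0.225 by limma), and FURIN, the protease that splits the mesothelin precursor, by -0.73 ± 0.38 (SE, adjusted p = 0.220 by limma). In the CEACAM family beyond the 3 antigens, 8 of 9 genes had a probe and only CEACAM21 was detected, on 1 resistant array. Partners of CEACAM1 and CD24 moved both ways, 2 of 5 tested falling and 1 rising, with a median of -0.12. The riser, FYN, was undetected in NCI-N87 and could only be found higher. The phosphatase PTPN6, recruited by the CEACAM1 tail, fell from 8.34 to 5.81 ± 0.51 (SD, n = 4) and was detected in 1 resistant line. The kinase SRC fell 4.79-fold and its relative FYN was at least 7.59-fold higher, whereas PTPN11 differed by -0.12 ± 0.30 (SE, adjusted p = 0.808 by limma).

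The machinery that attaches GPI anchors, on which MSLN, CEACAM6 and CD24 depend, was mostly detected on both sides. All 28 genes of the list were tested, 27 of them detected in NCI-N87 and 28 in at least 1 resistant line. Higher levels were called for 6 and lower for 2, 20 were called neither way, and the median log2 difference was 0.09. PIGF, needed to add the ethanolamine phosphate that links anchor and protein, rose 10.7-fold, from 6.74 to 10.15 ± 0.12 (SD, n = 4; adjusted p = 0.000336 by limma). PIGH, a subunit of the enzyme of the first step, rose 8.19-fold, and PIGP of the same enzyme 3.50-fold. PGAP3, which remodels the lipid of the finished anchor and lies beside ERBB2 on chromosome 17, fell 23.2-fold (adjusted p = 0.000778 by limma), and the mannosyltransferase PIGB fell 2.09-fold. In the Ly6 family, to which PSCA belongs, 10 genes were tested, of which 3 were called higher, 3 lower and 4 neither way (median -0.15). Only 7 of the 10 were detected in NCI-N87 and 8 in a resistant line. Among the calls, LYPD3 and LYNX1 could therefore only be found lower, and LYPD6 only higher. LY6E fell 4.01-fold, and LYPD3, itself an antibody target, was at least 3.26-fold lower, while LYPD6 was at least 3.81-fold higher and LYPD1 rose 3.63-fold.

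**Figure D4:**
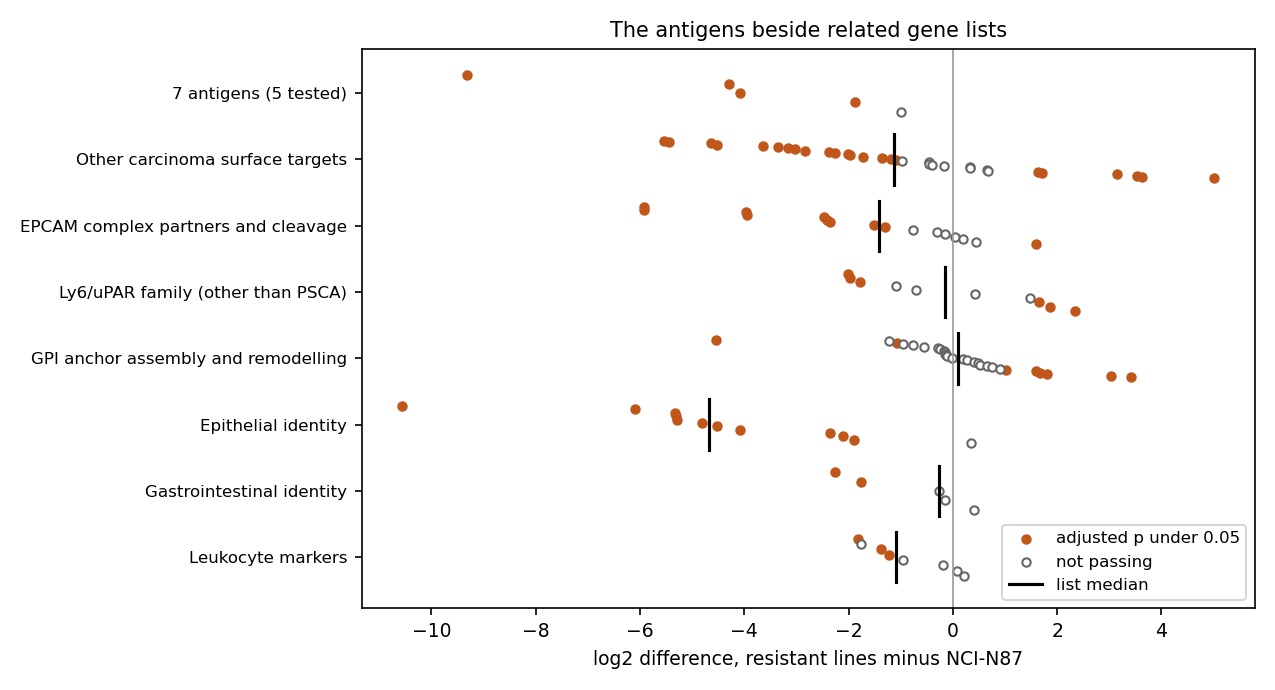
Log2 difference of the resistant lines from NCI-N87 (horizontal axis) for each tested gene of the antigens and 7 related lists. Orange points passed an adjusted p under 0.05, open points did not, and the black bar is the list's median. No median is drawn for the antigens, 3 of which could only be found lower. The other surface targets have a median of -1.13 with points on both sides of zero, and the GPI anchor genes of 0.09.

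Other carcinoma surface proteins that serve as drug targets were lower in 17, higher in 6 and not passing in 9 of 32 tested. The shares were 53.1% lower and 18.8% higher, against 10.5% and 12.5% of all tested genes, with a median of -1.13. Of the 32, 28 were detected in NCI-N87 and 27 in a resistant line. Some could thus only be found lower and others only higher, and for those the counts carry no weight. P-cadherin (CDH3) fell from 11.87 to 6.33 ± 1.07 (SD, n = 4) and was detected in 1 resistant line. The mucin MUC1 fell 24.9-fold (log2 difference -4.64 ± 0.28, SE, adjusted p = 8.75e-05 by limma). In the other direction the NOTCH ligand DLL3 was at least 10.5-fold higher, FGFR3 rose 12.4-fold and the oncofetal glypican GPC3 was at least 3.89-fold higher. CLDN18, a gastric claudin used as an antibody target, had 4 probes and was detected on no array. Epithelial identity genes, which share the tissues of EPCAM, were lower in 11 of 12 tested (91.7%), with a median of -4.67 and a summed log2 level of 16.26 in NCI-N87 against 10.34 to 11.35 in the resistant lines. All 12 were detected in NCI-N87 and 4 in any resistant line, so the rest could only be found lower and the count carries no weight for them. KRT19 was at least 574-fold lower and keratin 7 (KRT7) at least 16.5-fold, while KRT18 differed by 0.34 ± 0.66 (SE, adjusted p = 0.760 by limma). Of 5 tested gastrointestinal genes, 2 fell, VIL1 at least 1.68-fold and MUC6 3.38-fold (detected by its probe in 2 resistant lines). VIL1, undetected in every resistant line, could only be found lower. CDX2 differed by 0.41 ± 0.39 (SE, adjusted p = 0.504 by limma). The part of these epithelial genes in the differences of the antigens was not tested.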

How the data were processed

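RNA from 5 lines was measured on Illumina BeadChips, 1 array per line, grouped by the labels' trastuzumab sensitivity. The deposited scanner table holds a linear intensity per probe, not normalised, and a detection p-value, per the file headers; GenomeStudio is named in the submitters' processing notes. The authors' processed intensity, made by a method not given in the sources used here, served as an alternative. Symbols came from the platform annotation and were updated by gene ID through RefSeq (GRCh38.p14): 30111 probes had 1 symbol, 8 had several and 17199 are unnamed here.

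Signals were background corrected, quantile normalised and log2 transformed with neqc (offset 16) in limma 3.58.1, R 4.3.3. Genes with a probe detected (p under 0.01) on at least 1 array were tested, using the probe of highest mean. lmFit and eBayes gave two-sided tests with 3 residual and 3.83 prior degrees of freedom, the lone NCI-N87 array being assumed to vary like the resistant lines. Benjamini-Hochberg adjustment ran over all 12478 genes. Where every probe of a gene was undetected in a group, folds are given as at least N-fold. They are taken against the higher of each array's lowest detected level and the probe's own, and hold on the background-corrected scale. Any p-value beside such a fold belongs to the fitted difference, not to the bound. Where the resistant lines were undetected, its spread is that of background readings, which need not match the spread of a detected level. Promoters were aligned with Biopython 1.88. The fit was tested on simulated data. Precision is limited by the number of arrays.

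Members and lists were chosen with earlier results of these data known. Beyond the antigens, each list names at most the 3 largest changes in each direction that passed, a fixed set (ERBB2, MUC1, MUC16, CLDN18, CLDN7 and PGAP3 among them; 1 item is not reported here) and, chosen after values were seen, ADAM10, NCSTN, APH1A, PSEN2, PSENEN, STRC, FURIN, CEACAM21, PTPN11, KRT18, CDX2, CD14, CD68, FCGR3A, COL1A1 and the undetected markers. ADAM17 and CTNNB1 were likewise named after values were seen. Genes of the Y chromosome and XIST were left out of the nearest genes, which were otherwise found by the same rule.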

Additional observations from a re-analysis of the deposited data

How the results depend on the processing

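MSLN, EPCAM, CEACAM1 and CEACAM6 stayed lower and past the test, and CD24 stayed lower and short of it, under every alternative that gave them a value. The alternatives changed the normalisation (cyclic loess or the 75th percentile), the offset (50), the background step, the probe rule (mean or single probes), the detection filter, the variance model and the source of the values (those processed by the authors), or left out each resistant line. Detection on all 5 arrays removed MSLN, CEACAM1 and CEACAM6. Under the filter kept in most alternatives these genes could only be found lower, so their staying lower there carries no weight. Log2 differences ran from -9.37 to -7.54 for MSLN, -4.58 to -3.55 for EPCAM, -4.14 to -2.49 for CEACAM1, -1.94 to -0.97 for CEACAM6 and -1.35 to -0.84 for CD24. The smaller values of MSLN, CEACAM1 and CEACAM6 came without background correction, and the cause was not tested. Adjusted p for CD24 ran from 0.0641 to 0.367.

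Counts over all genes moved more. The 2880 genes past the test (1316 lower) became 1462 (631 lower) with detection on all 5 arrays, where fewer genes are tested, and 1379 (690 lower) at an adjusted p under 0.01. With detection on all 5 arrays the genes at least 2-fold lower numbered 1118, 1104, 1091 and 1095 in N87-TR1 to N87-TR4. The 119 genes of N87-TR3 against the other 3 became 70 under 75th percentile scaling, 302 with the authors' values, 247 with detection on all 5 arrays, 243 with a variance trend, 40 with the mean of probes, 344 without background correction and 13 without a filter, and the cause was not tested. N87-TR4 had 1 gene in place of 0 under 75th percentile scaling and with a variance trend. Cyclic loess moved the median difference of all genes from 0.07 to -0.04. No antigen passed between resistant lines under any of these. No paired analysis was possible because the sensitive group has 1 array. Signals near the detection limit bound the folds of MSLN, CEACAM1 and CEACAM6.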

Other observations

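Genes next to the antigens on their chromosomes were examined after the values above were seen, taking the 5 nearest tested protein-coding genes on each side in the order of the RefSeq annotation and passing over the antigens themselves. Over all tested genes 10.5% were lower and 12.5% higher, so 1 in 10 each way is close to that background. Of the 10 around MSLN, 1 fell and 1 rose. The calcium channel CACNA1H rose (log2 difference 3.70, adjusted p = 0.00341 by limma) and the lipase maturation factor LMF1 fell (-1.44, adjusted p = 0.0269). Of the 10 around EPCAM, 2 rose and 1 fell. One of the risers was PIGF, the GPI anchor gene described above, with a log2 difference of 3.42 beside -4.30 for EPCAM. Around CEACAM1 1 fell, the surface protein LYPD3 (-1.98, adjusted p = 0.00797 by limma), and 1 rose, TMEM145 (3.16, adjusted p = 0.00146 by limma). The 10 genes around CEACAM5 and CEACAM6, which are the same genes, included 1 that fell. Of the 10 around PSCA, 3 fell, the transporter SLC45A4 (-1.51, adjusted p = 0.0247 by limma) and the Ly6 family genes LYNX1 and LY6E. Of those around CD24, 2 fell and 1 rose, with PRDM1, a transcription factor of terminal differentiation, at -2.24 (adjusted p = 0.00278 by limma).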
